A study of Homo sapiens with 6 samples.

Results

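The regulators described here are 10 genes that set the capacity of a cell to burn fatty acids and to make mitochondria. They are the peroxisome proliferator-activated receptors PPARA, PPARD and PPARG, the coactivators PPARGC1A and PPARGC1B (PGC-1 alpha and PGC-1 beta), the estrogen-related receptors ESRRA, ESRRB and ESRRG (ERR alpha, beta and gamma), the retinoid X receptor RXRA and the nuclear respiratory factor NRF1. They were taken by symbol from the deposited count files, and all 10 were found among the 38557 genes listed and all 10 passed the filter on low counts. The libraries came from cardiomyocytes differentiated from the human line WTC11, an established line of induced pluripotent stem cells, with no genetic change named in the labels. Cells were kept either in RPMI plus B27, a serum-free supplement, or in DMEM plus fatty acids, with 3 biological replicates of each, numbered 1 to 3 in both media. By these names the base medium, B27 and the fatty acids all differ together, so their parts in any difference cannot be told apart. The labels give neither the full composition of the media nor the time spent in them, and they do not say what replicates of the same number share, so p-values measure the spread between these libraries. All 6 libraries derive from 1 cell line.

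In muscle and heart, PPARs are nuclear receptors that are switched on by fatty acids and their derivatives. They bind DNA paired with a retinoid X receptor and drive genes of fatty acid uptake, storage and oxidation. The ERRs are orphan receptors of the same superfamily that drive genes of the citric acid cycle and the respiratory chain, and NRF1 drives genes of the respiratory chain and of mitochondrial DNA upkeep. PGC-1 coactivators do not bind DNA themselves. They dock on PPARs, ERRs and NRF1 and raise the output of all of them.

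Promoter sequences were available from RefSeq (GRCh38.p14) for 9 of the 10 genes, in 26 windows of the 250 bases before an annotated start site. The 3 windows printed below belong to genes that were higher in DMEM plus fatty acids in every same-numbered pair and hold a match to a motif searched, and none of their bases lies in an exon annotated in GENCODE 29. They are given 5′ to 3′ on the strand of the gene, with the match in capitals.
ESRRA, chr11:64305274-64305523, plus strand: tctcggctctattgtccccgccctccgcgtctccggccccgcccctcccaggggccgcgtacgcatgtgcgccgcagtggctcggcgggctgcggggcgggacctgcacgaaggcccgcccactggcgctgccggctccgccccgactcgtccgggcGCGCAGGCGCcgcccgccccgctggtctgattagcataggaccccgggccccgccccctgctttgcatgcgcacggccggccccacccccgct
ESRRG, chr1:217076993-217077242, minus strand, 1 of 8 windows of this gene: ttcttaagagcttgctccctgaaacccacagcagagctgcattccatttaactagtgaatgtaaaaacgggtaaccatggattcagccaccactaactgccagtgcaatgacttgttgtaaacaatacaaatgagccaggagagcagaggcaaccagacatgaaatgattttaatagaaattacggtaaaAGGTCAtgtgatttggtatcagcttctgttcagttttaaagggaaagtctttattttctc
PPARGC1A, chr4:24472906-24473155, minus strand, 1 of 2 windows of this gene: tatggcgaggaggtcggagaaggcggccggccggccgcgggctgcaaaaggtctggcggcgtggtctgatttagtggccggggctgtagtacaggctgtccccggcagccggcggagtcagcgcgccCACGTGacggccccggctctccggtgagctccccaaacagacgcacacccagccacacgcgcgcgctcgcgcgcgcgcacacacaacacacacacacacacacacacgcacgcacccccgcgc
The match in ESRRA is an NRF1 site that begins 93 bases before the start. PPARA has a palindromic form of the same site 20 bases before the later of its 2 annotated starts, shown with its surroundings because NRF1 is itself among the regulators.
PPARA, chr22:46150758-46150787, plus strand: gggctgggcgGCGCATGCGCggggcccggg
The match in ESRRG is AGGTCA, the core element bound by nuclear receptors, 60 bases before that start, and the match in PPARGC1A is an E-box (CACGTG) 123 bases before the start.

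In all, 7 motifs were searched on both strands. NRF1 sites were held by 5.07% of all 35116 windows of this length, AGGTCA by 12.1% and the E-box by 6.34%. Further AGGTCA matches stood in another window of ESRRG and in windows of PPARG, and a site of the muscle factor family MEF2 (0.327% of windows) stood in ESRRB. The ERR site TCAAGGTCA (0.319% of windows), the direct repeat of AGGTCA with a single spacer base that PPAR binds with RXR (0.0171%) and the cAMP response element TGACGTCA (1.65%) had no match in the 26 windows. AGGTCA is contained in the ERR site and in the direct repeat. A match describes the letters only, and the deposited counts do not say which start site was in use. Bases outside these windows were not searched, so a motif without a match here may stand in other promoter bases of these genes. The only window of PPARGC1B, chr5:149771690-149771939, lies inside the gene, whose annotated start is at 149730310.

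Library totals ran from 23232324 to 31035389 gene counts. Levels are given as CPM, the gene count relative to the size of its library after TMM scaling between libraries, and are listed for replicates 1, 2 and 3 in that order. A count of 0 would have allowed up to 0.0889 to 0.129 CPM, depending on the library, and none of the 10 genes had a count of 0. Of 16107 genes tested, 1.36% were called between media at an adjusted p under 0.05 (edgeR quasi-likelihood test, Benjamini-Hochberg). The replicate numbers of the 2 media went together across genes, so a second fit that holds the replicate number fixed (the block) is quoted where it matters, and it called 4.78% of genes. All 12 cardiomyocyte markers passed the filter. Mean levels of TNNT2, cardiac troponin T, were 3185 ± 137.8 CPM (SD, n = 3) in RPMI plus B27 and 3549 ± 616 CPM (SD, n = 3) in DMEM plus fatty acids.

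**Figure D1:**
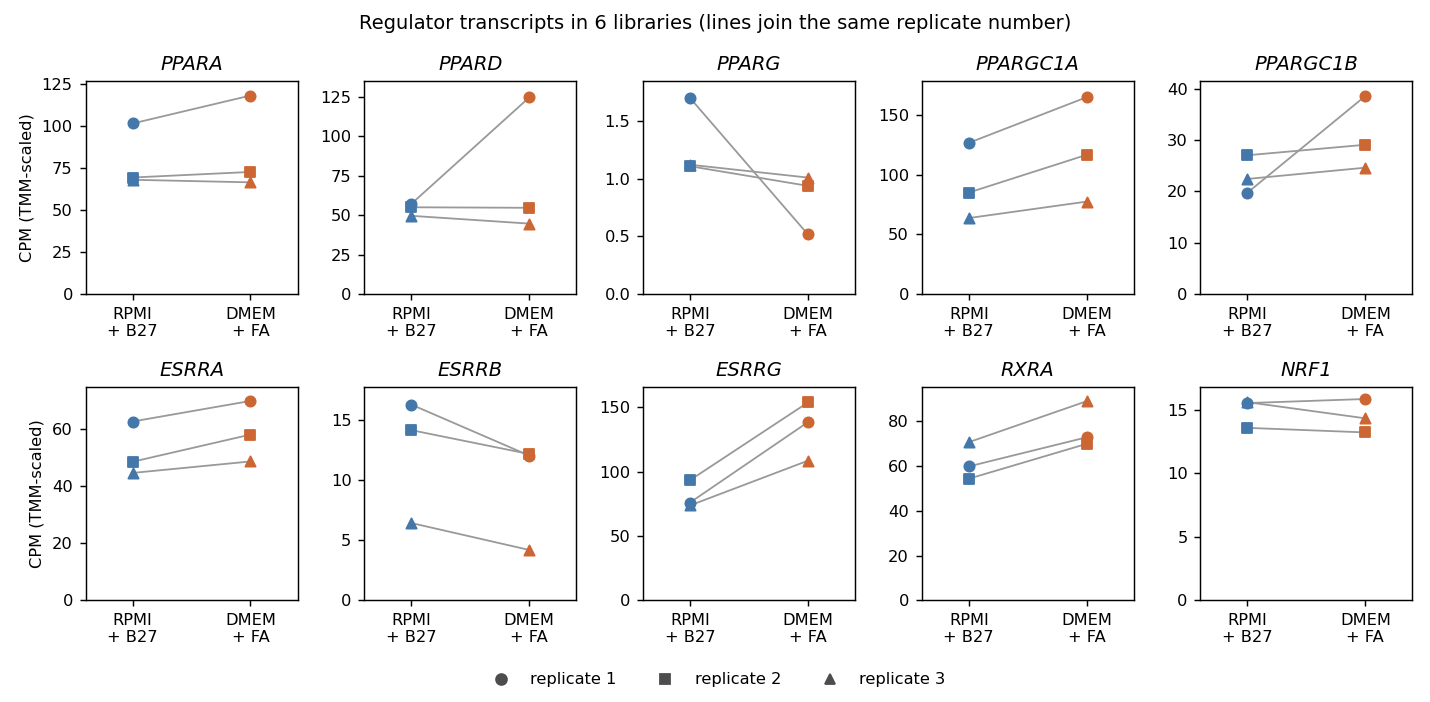
CPM of each regulator in the 6 libraries, RPMI + B27 on the left of each panel and DMEM + fatty acids (FA) on the right, with lines joining libraries of the same replicate number and every axis starting at 0. The libraries of the 2 media do not overlap for ESRRG (higher in DMEM + FA) and PPARG (lower in DMEM + FA). PPARA, PPARD, PPARGC1A, ESRRA, ESRRG and RXRA each have the same order of replicate numbers in both media.

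No regulator was called in the fit without the block (0 of 10, edgeR), 1 had an unadjusted p under 0.05 and was higher (7.70% of all genes were, and 17.7% in either direction), and 1, ESRRG, was called both with the block and by the DESeq2 Wald test, which called 7.56% of all genes. The median log2 fold change of the 10 was 0.25, with positive values meaning higher in DMEM plus fatty acids, against 0.009 over all genes tested. Of the 10 genes, 7 had a fitted change above 0, which held for 51.0% of all genes. Within same-numbered pairs, 5 were higher in DMEM plus fatty acids in all 3 pairs (PPARGC1A, PPARGC1B, ESRRA, ESRRG and RXRA), a pattern shown by 25.8% of all genes. PPARG and ESRRB were lower in all 3 pairs. The share of all genes lower in all 3 pairs was not computed, so that pattern has no background here.

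ESRRG, which encodes ERR gamma, the ERR known for driving oxidative genes in heart and slow muscle, showed the largest difference of the 10. It lies at chr1:216503246-217137702 on the minus strand. Its libraries stood at 75.9, 93.3 and 73.7 CPM in RPMI plus B27 and at 138.3, 153.6 and 108.4 CPM in DMEM plus fatty acids. Every DMEM plus fatty acids library was above every RPMI plus B27 library, as for 12.8% of all genes tested. The log2 fold change was 0.72 ± 0.16 (SE) with an adjusted p of 0.0875, and 3.27% of tested genes had a smaller p. With the block ESRRG rose by 0.71 ± 0.11 with an adjusted p of 0.0255, and the DESeq2 Wald test gave an adjusted p of 0.0105. Leaving out 1 library at a time gave 0.61 to 0.85, with adjusted p values up to 0.257, and no fit of 5 libraries called it.

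These are bulk libraries, in which fewer cells of a type and less RNA per cell cannot be told apart. Markers of other cells moved between the media: the summed level of 12 fibroblast and stromal markers ran from 4341 to 8415 CPM in RPMI plus B27 and from 758.5 to 1959 CPM in DMEM plus fatty acids, with 6 of the 12 called lower. The 5 smooth muscle markers summed to 1555 to 1949 CPM and 311.2 to 1125 CPM, with 1 called lower. The 12 cardiomyocyte markers summed to 33580 to 40390 CPM in RPMI plus B27 and 26690 to 37240 CPM in DMEM plus fatty acids, with 4 of the 12 higher and 8 lower, 0 called by edgeR, 3 at an unadjusted p under 0.05, and 2 called lower with the block. Those 2 were ACTN2, alpha-actinin of the sarcomere (-1.05 with the block, adjusted p 0.0494), and MYH7, the beta myosin heavy chain (-1.32, adjusted p 0.0359). Among scarcer cell types the block called EMCN (endothelial), TBX18 (epicardial) and AFP (endoderm) lower and the endothelial gene KDR higher (1.49, adjusted p 0.0245), and the fit without it called none of these 4. The other endothelial markers did not follow KDR. TEK was lower but not called (-2.13, edgeR adjusted p 0.0960), and PECAM1, CDH5 and VWF reached at most 5, 11 and 3 counts in a library, against 15628 for KDR. AFP ran from 0 to 62.8 CPM within RPMI plus B27. Set against these cardiomyocyte markers in the same library, a scale added after seeing the data, ESRRG stood at 1.88, 2.505 and 2.19 counts per 1000 marker counts in RPMI plus B27 and at 3.80, 4.125 and 4.06 in DMEM plus fatty acids. The ESRRG libraries thus did not overlap on that scale either. ESRRA and PPARGC1B also did not overlap on it, and both did overlap in CPM. Every regulator had a higher log2 fold change on this scale than in CPM, with 0.34 against 0.18 for ESRRA. All genes of a library are divided by the same marker count, so this shared shift arises largely by construction and is no trait of the regulators. The share of all genes without overlap on this scale was not computed, so non-overlap on it has no background here. The part of all these markers in the differences was not tested.

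ESRRA, which encodes ERR alpha, the main partner of PGC-1 on genes of the respiratory chain, lies at chr11:64305524-64316743 on the plus strand. It was at 62.7, 48.6 and 44.7 CPM in RPMI plus B27 and at 69.9, 58.1 and 48.7 CPM in DMEM plus fatty acids. Replicate 1 was highest and replicate 3 lowest in both media, and the media overlapped. Its log2 fold change was 0.18 ± 0.18 (adjusted p 0.654), and ran from 0.037 without DMEM plus fatty acids replicate 1 to 0.34 without RPMI plus B27 replicate 1. GENCODE 29 annotates 2 processed pseudogenes of ESRRA, and 9.96% of its exon bases overlap TRMT112 on the other strand, so its counts may be incomplete.

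ESRRB, which encodes ERR beta, the least abundant ERR here, is known for its role in pluripotent and trophoblast cells. It lies at chr14:76310777-76501837 on the plus strand. Its values were 16.2, 14.1 and 6.41 CPM in RPMI plus B27 and 12.01, 12.14 and 4.18 CPM in DMEM plus fatty acids. Replicate 3 was the lowest in each medium, below every library of the other 2 numbers. In log2 terms the difference was -0.38 ± 0.48 (adjusted p 0.724), and -0.42 ± 0.17 with the block (adjusted p 0.197), with lower values in DMEM plus fatty acids in all 3 pairs. Without DMEM plus fatty acids replicate 3 it was -0.016.

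Among reads of the 3 ERR genes, the ESRRG share was 49.0%, 59.8% and 59.1% in RPMI plus B27 and 62.8%, 68.6% and 67.2% in DMEM plus fatty acids. The lowest share in DMEM plus fatty acids had a 95% Wilson interval of 61.45% to 64.1%, just above the 58.2% to 61.4% of the highest share in RPMI plus B27. The mean share went from 56.0% ± 6.02 to 66.2% ± 3.04 (SD, n = 3 each), a difference of 10.2 percentage points (exact two-sided permutation p = 0.1, the smallest that 3 against 3 can give, and 0.3 adjusted over the 3 shares tested). The share was higher in DMEM plus fatty acids in all 3 pairs, by 13.8, 8.82 and 8.16 percentage points (exact sign-flip p = 0.25, the smallest that 3 pairs can give). A share within a library needs no scaling between libraries, and the intervals cover counting error only.

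PPARGC1A, which encodes PGC-1 alpha, the inducible coactivator that answers to cold, fasting and exercise, lies at chr4:23792021-24472905 on the minus strand. It was at 126.6, 85.0 and 63.7 CPM in RPMI plus B27 and at 164.8, 116.6 and 77.5 CPM in DMEM plus fatty acids. Replicate 1 was highest and replicate 3 lowest in both media, and the media overlapped widely. Within pairs the log2 ratio was 0.38, 0.46 and 0.28, which is a narrow range beside the spread between replicate numbers. The fitted log2 fold change was 0.38 ± 0.33 without the block (adjusted p 0.585) and 0.37 ± 0.10 with it (adjusted p 0.0891), so it was not called in either fit. It was 0.080 without DMEM plus fatty acids replicate 1 and 0.68 without RPMI plus B27 replicate 1.

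PPARGC1B, which encodes PGC-1 beta, the more constant relative of PGC-1 alpha, lies at chr5:149730310-149857959 on the plus strand. Its values were 19.7, 27.02 and 22.4 CPM in RPMI plus B27 and 38.5, 29.1 and 24.6 CPM in DMEM plus fatty acids. The media overlapped, and the DMEM plus fatty acids library of replicate 1 was the highest. The fitted log2 fold change was 0.41 ± 0.21 (adjusted p 0.348), of which the pair of replicate 1 showed 0.96 and the other pairs 0.11 and 0.13. Without that DMEM plus fatty acids library the log2 fold change was 0.22.

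PPARGC1A made up 86.5%, 75.9% and 74.0% of the reads of the 2 PGC-1 genes in RPMI plus B27 and 81.1%, 80.1% and 75.9% in DMEM plus fatty acids. The mean share was 78.8% ± 6.76 and 79.0% ± 2.73 (SD, n = 3 each), a difference of 0.21 percentage points (exact two-sided permutation p = 0.9, also 0.9 adjusted over the 3 shares). The difference was within the spread between replicates, and the 3 pairs differed by -5.46, 4.17 and 1.92 percentage points.

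PPARA, which encodes the PPAR most tied to fatty acid oxidation in heart and liver, lies at chr22:46150526-46243756 on the plus strand. It was at 101.4, 69.3 and 67.9 CPM in RPMI plus B27 and at 118.0, 72.6 and 66.4 CPM in DMEM plus fatty acids. Replicate 1 stood above all other libraries in both media. The log2 fold change was 0.11 ± 0.26 (adjusted p 0.866), and it was -0.20 without the DMEM plus fatty acids library of replicate 1.

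PPARD, which encodes the broadly expressed PPAR delta, lies at chr6:35342558-35428178 on the plus strand. Its values were 57.2, 55.1 and 49.6 CPM in RPMI plus B27 and 124.6, 54.7 and 44.7 CPM in DMEM plus fatty acids. A single library, DMEM plus fatty acids replicate 1, stood apart at 124.6 CPM, and the remaining 5 lay between 44.7 and 57.2 CPM. The log2 fold change of 0.47 ± 0.36 (adjusted p 0.542) turned to -0.12 without that library. The PPARD share of PPAR reads followed it, at 35.7%, 43.9% and 41.8% in RPMI plus B27 and 51.3%, 42.7% and 39.9% in DMEM plus fatty acids. Its mean went from 40.5% ± 4.26 to 44.6% ± 5.94 (SD, n = 3 each; exact two-sided permutation p = 0.5, 0.75 adjusted over the 3 shares), a difference of 4.13 percentage points that was higher in 1 of 3 pairs.

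PPARG, which encodes the PPAR of fat cells and macrophages, lies at chr3:12287368-12434344 on the plus strand and was the lowest of the 10. Its raw counts were 45, 26 and 30 in RPMI plus B27 and 12, 28 and 34 in DMEM plus fatty acids. Scaled, these were 1.70, 1.11 and 1.12 CPM and 0.517, 0.936 and 1.01 CPM. The media did not overlap in CPM, as for 25.6% of all genes in either direction, and the log2 fold change was -0.66 ± 0.37 (adjusted p 0.407). Per cardiomyocyte marker count the media did overlap. Each of the 4 fat cell markers reached at most 7 counts in a library and each of the 4 macrophage markers at most 12.

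RXRA, which encodes the retinoid X receptor alpha that pairs with PPARs, lies at chr9:134326455-134440585 on the plus strand. It was at 59.8, 54.3 and 70.7 CPM in RPMI plus B27 and at 72.9, 69.9 and 89.0 CPM in DMEM plus fatty acids. Replicate 3 was highest in both media, and only the RPMI plus B27 library of that number reached into the DMEM plus fatty acids range. The log2 fold change was 0.33 ± 0.15 (adjusted p 0.308), and 0.33 ± 0.09 with the block (adjusted p 0.108), with pair ratios of 0.28, 0.36 and 0.33.

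Its relatives had fold changes of the other sign, none of them called, and the difference from RXRA was not tested. RXRG, the retinoid X receptor found mainly in muscle and brain, had a log2 fold change of -0.997 ± 0.35 (adjusted p 0.203), from 46.1 ± 16.6 to 23.1 ± 8.62 CPM (SD, n = 3 each). Its libraries were lower in DMEM plus fatty acids without overlap, as for 12.8% of all genes. RXRB had -0.06 ± 0.13 (adjusted p 0.834). Of the reads of the 3 RXR genes, RXRA held 33.2%, 35.1% and 35.5% in RPMI plus B27 and 45.3%, 43.6% and 49.1% in DMEM plus fatty acids. The RXRG share was 22.8%, 21.1% and 32.5% and then 8.39%, 16.0% and 16.6%. These shares were added after the values of RXRG were seen and carry no test.

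NRF1, which encodes nuclear respiratory factor 1, lies at chr7:129611720-129757076 on the plus strand and varied little. It was at 15.5, 13.6 and 15.6 CPM in RPMI plus B27 and at 15.8, 13.2 and 14.3 CPM in DMEM plus fatty acids. In log2 terms the media differed by -0.04 ± 0.16 (adjusted p 0.908). With total-count scaling in place of TMM its sign was positive (0.065).

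**Figure D2:**
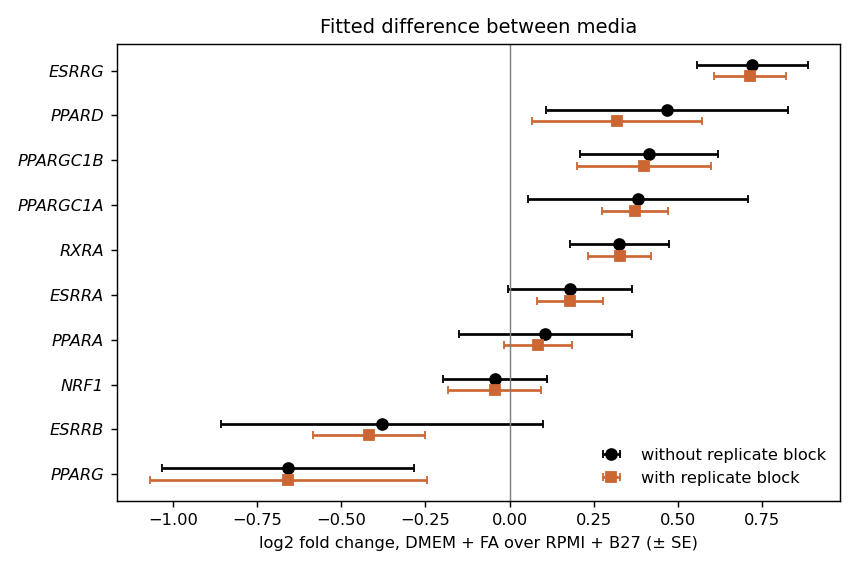
Fitted log2 fold change of each regulator, DMEM + fatty acids (FA) over RPMI + B27, with its standard error, from edgeR without (black) and with (orange) the block of replicate numbers. ESRRG stands highest at 0.72 and PPARG lowest at -0.66, and the error bars of PPARGC1A and ESRRB are narrower with the block.

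The spread of log2 CPM over the 6 libraries was divided into a part that goes with the medium, a part that goes with the replicate number, and a remainder. The medium held the larger of the first 2 parts for 4 regulators, ESRRG (79.1%), RXRA (52.9%), PPARG (47.8%) and PPARGC1B (43.2%). The replicate number held the larger part for the other 6, with 95.7% for PPARA, 89.2% for ESRRB, 86.2% for NRF1, 83.3% for PPARGC1A, 83.0% for ESRRA and 54.3% for PPARD. Over 16052 genes with counts in every library, the median part was 25.4% for the medium and 40% for the replicate number. The first 2 parts are not on an equal footing, since the medium has 2 levels and the replicate number has 3. Values without any structure would on average already give the replicate number the larger part. These parts are descriptions of 6 values per gene and carry no test.

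**Figure D3:**
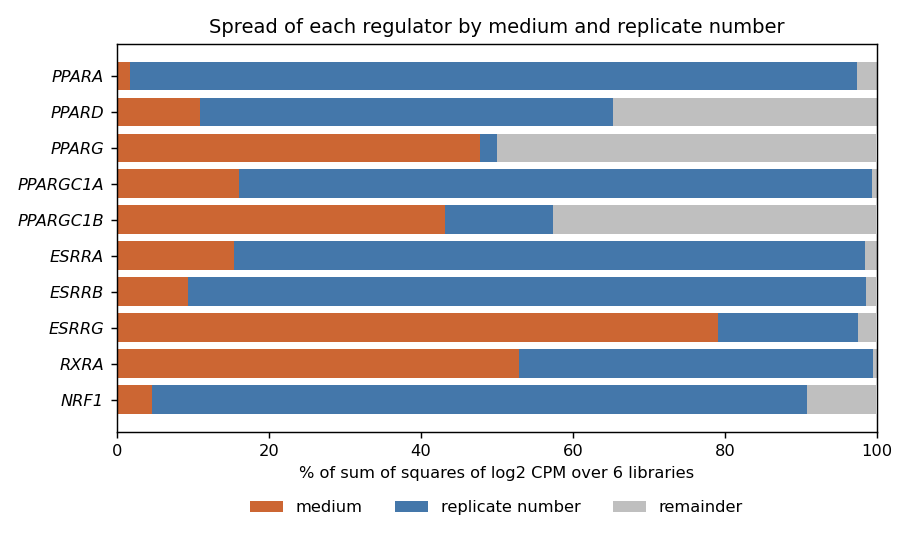
Share of each regulator's sum of squares of log2 CPM over the 6 libraries that goes with the medium (orange), with the replicate number (blue) and with neither (grey). ESRRG has 79.1% with the medium, and PPARA has 95.7% with the replicate number.

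Levels of different genes were compared per length, as CPM per kb of the exons of coding and processed transcripts in GENCODE 29. In RPMI plus B27 the order ran ESRRA (18.2 ± 3.33), PPARD (12.1 ± 0.875), RXRA (10.1 ± 1.36), PPARGC1A (8.68 ± 3.03), ESRRG (7.48 ± 0.992), PPARA (7.01 ± 1.67), NRF1 (3.61 ± 0.278), ESRRB (2.07 ± 0.872), PPARGC1B (1.81 ± 0.288) and PPARG (0.360 ± 0.0929; CPM per kb, SD, n = 3). Neighbours from PPARD to PPARA overlapped each other in their library values, as did ESRRB and PPARGC1B. ESRRA stood above PPARD, PPARA above NRF1, NRF1 above ESRRB, and PPARGC1B above PPARG without overlap. In DMEM plus fatty acids, ESRRG was at 12.3 ± 2.12 CPM per kb and passed PPARGC1A (11.3 ± 4.14), and PPARGC1B (2.41 ± 0.557) passed ESRRB (1.59 ± 0.769), though each of these neighbours overlapped. ESRRA and PPARD also overlapped there, with PPARD at 27.96 CPM per kb in replicate 1, above every ESRRA library (at most 24.5). The order of the middle genes depends on the length used: with the longest annotated transcript in place of all exons, ESRRG ranked 2 and RXRA 5 in both media. ESRRA ranked 1, PPARA 6, NRF1 7 and PPARG 10 with either length.

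**Figure D4:**
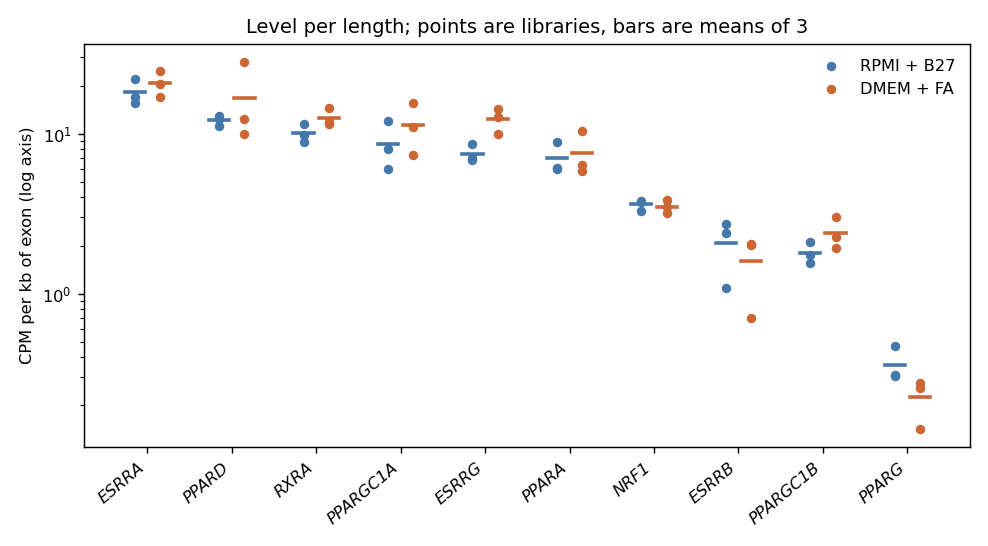
Level per length of the 10 regulators on a log axis, as CPM per kb of annotated exon, ordered by the mean in RPMI + B27. Points are libraries and bars are means of 3. ESRRA has the highest mean in both media, though PPARD overlaps it in DMEM + FA, and PPARG has the lowest, at 0.360 and 0.226 CPM per kb.

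The genes with the pattern most like each regulator were ranked by the root-mean-square difference of log2 CPM, each gene centred on its own mean, over the 6 libraries and among 10027 genes whose mean level reached 10 CPM. ESRRG lay nearest to OSBP2, an oxysterol-binding protein (0.0545), ARHGAP27 (0.0840) and SPHKAP, a protein kinase A anchoring protein (0.0856), where the median over all genes was 0.438. PPARGC1A lay nearest to CORO6, a muscle coronin (0.101), RASGRP3 (0.106) and the amino acid transporter SLC38A2 (0.120). PPARGC1B lay nearest to TRIM54 (0.0526), a ubiquitin ligase of the sarcomere, CYCS (0.0612), which encodes cytochrome c, and the histone gene H2BC21 (0.0663). PPARD, with its single high library, lay nearest to the fatty acid desaturase FADS1 (0.0993), the endoplasmic reticulum chaperone HSP90B1 (0.108) and FAM189B (0.126). The nearest gene was POLM for ESRRA, EDEM1 for PPARA, RCAN1 for ESRRB, FCSK for RXRA and RAPGEF6 for NRF1, at 0.0232 to 0.177. The nearest of 10027 genes over 6 libraries would lie far below the median for almost any gene. Genes that vary little, such as NRF1, tend to small distances for that reason. These distances carry no test and do not show shared regulation.

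The other genes of the pathway were read from 5 lists, which hold 101 genes, 6 of them in more than one list. Partners and cofactors of the receptors had 18 of 19 genes tested, with 10 higher and 8 lower, a median log2 fold change of 0.04 and 0 called by edgeR (4 at an unadjusted p under 0.05, near the 17.7% of all genes, and 1 called by DESeq2, against 7.56% of all genes). The 4 with the smallest p were LPIN1, a coactivator of PGC-1 alpha with PPARA that is also a lipid phosphatase (0.94 ± 0.24, adjusted p 0.114), RXRG, the deacetylase SIRT1 that acts on PGC-1 alpha (0.33 ± 0.12, adjusted p 0.226) and the steroid receptor coactivator NCOA1 (0.46 ± 0.18, adjusted p 0.239). LPIN1 went from 57.9 ± 6.01 to 111.3 ± 40.4 CPM and did not overlap between media. Its DMEM plus fatty acids libraries stood at 157.9, 87.4 and 88.6 CPM, with replicate 1 the highest. In the whole list 4 of 18 genes tested were higher without overlap and 1 was lower, where 12.8% of all genes were in each direction. PERM1, a striated-muscle partner of PGC-1 and ERR that is in this list and among the ERR targets, was not tested, with at most 40 counts in a library. PERM1 is named for that reason, after its values were seen.

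Inputs that act on PGC-1 alpha had 16 of 16 genes tested, 9 higher and 7 lower, a median of 0.07 and 0 called by edgeR (3 at an unadjusted p under 0.05, where 17.7% of all genes were, and 2 called by DESeq2, against 7.56%). MEF2C, a muscle transcription factor that drives the PGC-1 alpha gene, went from 94.1 ± 2.12 to 123.5 ± 8.75 CPM (0.39 ± 0.10, adjusted p 0.123). CRTC1, a coactivator of CREB, went from 38.7 ± 0.799 to 50.7 ± 1.71 CPM (0.39 ± 0.11, adjusted p 0.124). PRKAA1, a catalytic subunit of the energy sensor AMPK, had 0.31 ± 0.12 (adjusted p 0.235), and FOXO3 had 0.25 ± 0.11 (adjusted p 0.3001). PRKAA2, the other catalytic subunit of AMPK, had -0.45 ± 0.30 (adjusted p 0.482, and 0.0593 with the block). It was lower in all 3 pairs, a pattern whose share of all genes was not computed, and is named after its values were seen. In the whole list 5 of 16 genes were higher without overlap, against 12.8% of all genes, and 0 were lower.

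PPAR targets had 25 of 30 genes tested, 19 higher and 6 lower, with a median of 0.40 and 1 called, against 0.292% of all genes called higher. The called gene was CPT1A, the liver-type gate of mitochondrial fatty acid entry, which rose by 1.75 ± 0.27 on the log2 scale (adjusted p 0.0402, and 0.0311 with the block), from 29.3 ± 4.82 to 98.7 ± 33.1 CPM (SD, n = 3 each). With the block 2 genes were called, both higher, against 1.36% of all genes called higher with the block. These were CPT1A and MLYCD, malonyl-CoA decarboxylase, which removes the inhibitor of that gate (0.63 ± 0.14, adjusted p 0.0808 without and 0.0258 with the block). MLYCD went from 47.6 ± 5.47 to 73.9 ± 8.02 CPM. The others among the 4 smallest p values were CPT1B, the muscle-type form of the same gate (1.37 ± 0.37, adjusted p 0.124), at 0.601 ± 0.212 and 1.56 ± 0.253 CPM, and PEX11A, a peroxisome division factor (-0.85 ± 0.25, adjusted p 0.153). The read-through gene CHKB-CPT1B shares the exons of CPT1B and had 0 counts in every library, so the CPT1B counts are uncertain. In this list 11 genes had an unadjusted p under 0.05 by edgeR without the block, against 17.7% of all genes, and 10 of them were higher, against 7.70%. The list had 9 genes higher without overlap (12.8% of all genes were) and 3 lower without overlap (also 12.8% of all genes). Targets not tested included FABP4, CREB3L3, CYP4A11 and FGF21, none of these 4 above 3 counts in a library and named for that reason after their values were seen. With 1 library left out, 1 gene of the list was called without DMEM plus fatty acids replicate 1, and 0 were called without any other single library (6 to 9 at an unadjusted p under 0.05). Over all genes, from 2087 of 16555 to 3077 of 16579 had an unadjusted p under 0.05 in those other fits.

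ERR and PGC-1 targets had 24 of 25 genes tested, 22 higher and 2 lower, where 51.0% of all genes were higher. Their median log2 fold change was 0.29, and 0 were called by edgeR with or without the block (10 at an unadjusted p under 0.05, all higher, where 7.70% of all genes were, and 3 called by DESeq2, against 7.56% of all genes). With 1 library left out, from 2 (without DMEM plus fatty acids replicate 2) to 13 genes (without DMEM plus fatty acids replicate 3) had an unadjusted p under 0.05, with 4, 5, 7 and 7 in the other fits. Over all genes this held for 2087 of 16555 without DMEM plus fatty acids replicate 2 and 2755 of 16453 without DMEM plus fatty acids replicate 3. The 2 genes, of 25 tested in that fit, were thus a smaller share than that of all genes. Of the 24, 13 were higher in DMEM plus fatty acids without overlap, against 12.8% of all genes tested, and none was lower without overlap. Among the smallest p values were those of OGDH, the 2-oxoglutarate dehydrogenase of the citric acid cycle (0.57 ± 0.16, adjusted p 0.142), of UQCRFS1, the Rieske protein of complex III (0.42 ± 0.13, adjusted p 0.159), and of ATP5F1A, the alpha subunit of ATP synthase (0.40 ± 0.14, adjusted p 0.203). OGDH went from 298.9 ± 35.6 to 445.1 ± 69.8 CPM (SD, n = 3 each). No member of this list had a log2 fold change below -0.0026.

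NRF1 targets had 17 of 17 genes tested, 15 higher and 2 lower, with a median of 0.24 and 0 called by edgeR with or without the block. At an unadjusted p under 0.05 were 5, against 17.7% of all genes, and 4 of them were higher, against 7.70%. DESeq2 called 1, against 7.56% of all genes. With 1 library left out, from 2 (without DMEM plus fatty acids replicate 2) to 6 genes (without DMEM plus fatty acids replicate 3) had an unadjusted p under 0.05. Over all genes this held for 2087 of 16555 and 2755 of 16453 in those fits. COX6A1, a subunit of cytochrome c oxidase, had 0.52 ± 0.13 (adjusted p 0.0972), and ALAS1, the first enzyme of haem synthesis, 0.38 ± 0.11 (adjusted p 0.149). TFAM, a transcription factor that also packs mitochondrial DNA, had 0.44 ± 0.16 (adjusted p 0.218). TFAM went from 44.8 ± 8.71 to 60.8 ± 3.68 CPM. POLRMT, the mitochondrial RNA polymerase, had the opposite sign at -0.50 ± 0.19 (adjusted p 0.228). It was lower in DMEM plus fatty acids without overlap, as for 12.8% of all genes. In this list 11 genes were higher without overlap, against 12.8% of all genes, and 51.0% of all genes were higher with or without overlap.

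**Figure D5:**
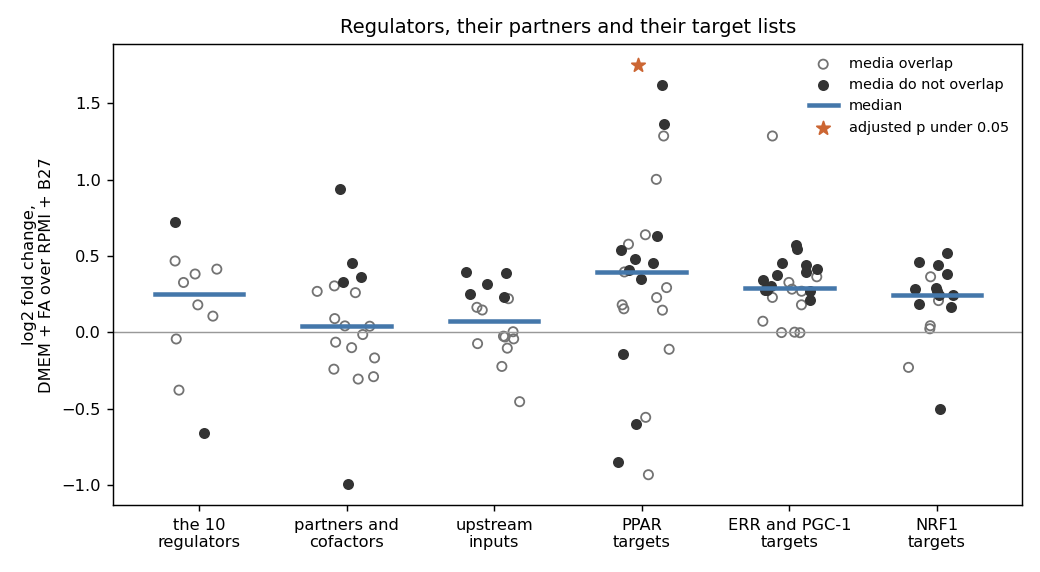
Log2 fold change, DMEM + fatty acids (FA) over RPMI + B27, of each tested gene in the 10 regulators and the 5 lists, with filled points where the libraries of the 2 media do not overlap in CPM, a star where the adjusted p was under 0.05, and a bar at the median. The medians run from 0.04 for partners and cofactors to 0.40 for PPAR targets, and CPT1A carries the star.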

How the data were processed

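Polyadenylated RNA of 6 samples was sequenced, with strand-preserving libraries per the labels' protocols. Each deposited file lists unnormalized counts by gene symbol for a single library. STAR, HTSeq and the build hg38 are named in the submitters' processing notes, while versions, annotation and strand setting are not given in the sources used here. The 5 summary rows of each file (12.8% to 15.6% of reads) were left out.

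All 6 libraries entered 1 fit without covariates (edgeR 4.0.16, R 4.3.3), after filterByExpr (minimum count 10, minimum total 15, 16107 genes left) and TMM scaling, with Benjamini-Hochberg adjustment over all genes and a threshold of 0.05. The SE of a fold change was derived from its F value. Shares of raw counts were compared by exact permutation and sign-flip tests, with 95% Wilson intervals. The fits were tested on simulated data. Alternatives were RLE scaling, total-count scaling, other filters, DESeq2 1.42.0, the replicate block and leaving out each library. A scaling to cardiomyocyte marker counts was added after seeing the data.

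Deviations of same-numbered libraries from their medium's mean correlated across genes at 0.313, 0.428 and 0.365, and those of other numbers at -0.242 to -0.136. By this the numbers appear to pair the libraries, a reading from the data and not from the labels. Centring on each medium's mean pushes the values of other numbers below 0 when those of the same number are above it, so they are not separate evidence. With 3 libraries per medium a match by chance is not excluded, and the block rests on this reading.

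The members and lists were chosen with earlier results of these data known. Named genes are the 10 members, in each list up to 6 called genes and the 4 with the smallest p, and for each member with at least 10 CPM the 3 genes nearest in pattern. Some genes that this rule names are not reported here. Coordinates and promoters are from RefSeq on GRCh38.p14, and exon lengths from GENCODE 29 on GRCh38.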

Additional observations from a re-analysis of the deposited data

How the results depend on the processing

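Over all genes, 219 were called between media, 770 with the replicate block, 1218 by DESeq2, 539 without the filter, 119 with at least 10 counts in every library, and 3 to 131 with 1 library left out. Of the 10 regulators 0 were called by edgeR without the block, and 1 (ESRRG) with the replicate block and 1 by DESeq2. The block changed no other call of a regulator. The count for partners and cofactors moved from 0 to 1 without the filter and to 1 by DESeq2. DESeq2 called 2 upstream inputs, 3 ERR and PGC-1 targets and 1 NRF1 target, each from 0, and 4 PPAR targets, where edgeR called 1, or 2 with the block. Leaving out 1 library gave 0 to 1 PPAR targets.

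Direction turned for PPARA (-0.20) and PPARD (-0.12) without DMEM plus fatty acids replicate 1, in leave-one-out ranges of -0.20 to 0.32 and -0.12 to 0.73. For NRF1 it turned under scaling by total counts (0.065), without DMEM plus fatty acids replicate 2 (0.019, in a leave-one-out range of -0.12 to 0.019) and relative to cardiomyocyte marker counts (0.12). Scaling by total counts moved the median over all genes to 0.12 from 0.009 (log2). The other 7 regulators kept their sign in all alternatives run, but with 1 library left out ESRRA came to 0.037, PPARGC1A to 0.080 (both without DMEM plus fatty acids replicate 1) and ESRRB to -0.016 (without DMEM plus fatty acids replicate 3). The difference in PPARGC1A share was -2.20 to 4.07 percentage points with 1 library left out, negative without RPMI plus B27 replicate 2 or 3 or DMEM plus fatty acids replicate 1 or 2. That in ESRRG share was 6.78 to 12.2 and that in PPARD share 0.80 to 6.50. With the replicate block the differences in share (0.21, 10.2 and 4.13 percentage points) are the same by construction in a balanced design, which says nothing about their stability. The cause of these shifts was not tested. Depth limits PPARG most, with 12 to 45 counts per library.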
